A study of Mus musculus with 8 samples.

Results

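RNA bound to chromatin was set against cytoplasmic RNA of the same kind of cell after heat shock and recovery. The cells were embryonic fibroblasts of the mouse, which build connective tissue, labelled C57BL/6J and TSC2+/+, so all groups carry the wild-type allele of Tsc2. Heat-shocked cells were held at 42 °C for 1 h and then at 37 °C for 3 h, and unstressed cells were not heated. The labels name no clone, animal or age. In each condition, lysed cells were spun over sucrose to give the cytoplasm, and the washed nuclei were extracted with detergent and urea to leave the chromatin pellet. The comparison rests on 2 of the 8 libraries of the series, 1 from each fraction after heat shock. The 2 unstressed libraries of the same fractions are given beside them. With 1 library a side there is no replicate, no test was made, and every difference describes these libraries only.

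Values are RPKM, reads scaled to gene length and to library depth, paired between files by Ensembl gene identifier. Reads were recovered from the values (11131382 in cytoplasm and 19536459 in chromatin after heat shock). Of 28785 genes listed in any of 4 libraries, 19842 were listed in both heat shock libraries. Of those, 4575 averaged at least 1 RPKM in the 4 libraries and were compared. The files pair no names with identifiers, and the RefSeq table of GRCm38.p6 held 0 Ensembl identifiers, so nuclear genes are described by span, the gene length that the values imply with introns counted in. The markers of fibroblasts and of other cell types could therefore not be looked up, nor could chaperone genes or nuclear long noncoding RNAs. Mitochondrial genes were the exception. A run of 35 listed identifiers matched the 37 mitochondrial genes of RefSeq in order, with 34 spans equal, while the next best run matched 2.

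RNA in the chromatin pellet is mainly RNA that is still being made, introns included, together with noncoding RNAs that stay in the nucleus. The cytoplasm holds spliced, exported messenger RNA, short structured RNAs of translation, and the mitochondria with the RNAs of their own genome. Heat shock unfolds proteins and activates heat shock factors, which switch on chaperone genes. The new messengers appear at the gene, are exported and are translated while the cells recover. The position of an RNA between both fractions therefore reflects how much of it is nascent or retained and how much has been exported, as background to the values below.

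Most compared genes had the higher RPKM in chromatin after heat shock. Differences are given as log2((RPKM + 1)/(RPKM + 1)) of chromatin over cytoplasm, which understates those of genes with low values. The ratio was above 0 for 3737 of 4575 genes, with a median of 0.92, or 1.89-fold on this scale. The 5th, 25th, 75th and 95th percentiles were -1.28, 0.28, 1.38 and 2.15. At least 2-fold higher in chromatin were 2096 genes (45.8% of those compared), and at least 2-fold higher in cytoplasm were 317 (6.93%). Genes on either side of this limit did not stand apart, with log2 ratios of 1.00015 and 0.999958 just inside and just outside it toward chromatin.

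On the RPKM + 1 scale the tails had another balance than the body of the distribution. At 4-fold, 318 genes lay toward chromatin and 96 toward cytoplasm. At 8-fold the order turned, with 27 toward chromatin and 40 toward cytoplasm. The pseudocount holds down ratios of genes with low values, so this turn describes that scale only. For the 239 compared genes over 100 kb the median log2 ratio was 1.39 with the pseudocount and 3.325 without it. The balance also followed the scale, since each library is scaled to its own depth. Among genes past 2-fold, the share toward chromatin was 86.9% as deposited, 97.2% after both libraries were given an equal sum of RPKM and 33.4% with the median gene set to 0. It was 70.6% without the 10 highest genes in the scale, 69.5% when mitochondrial and short genes were left out of it as well, and 59.1% among genes of at least 5 RPKM. A common scaling keeps the order of RPKM ratios without a pseudocount. The order on the RPKM + 1 scale, by which genes are ranked below, can change with it. The side on which a moderate difference falls depends on the scaling as well.

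**Figure D1:**
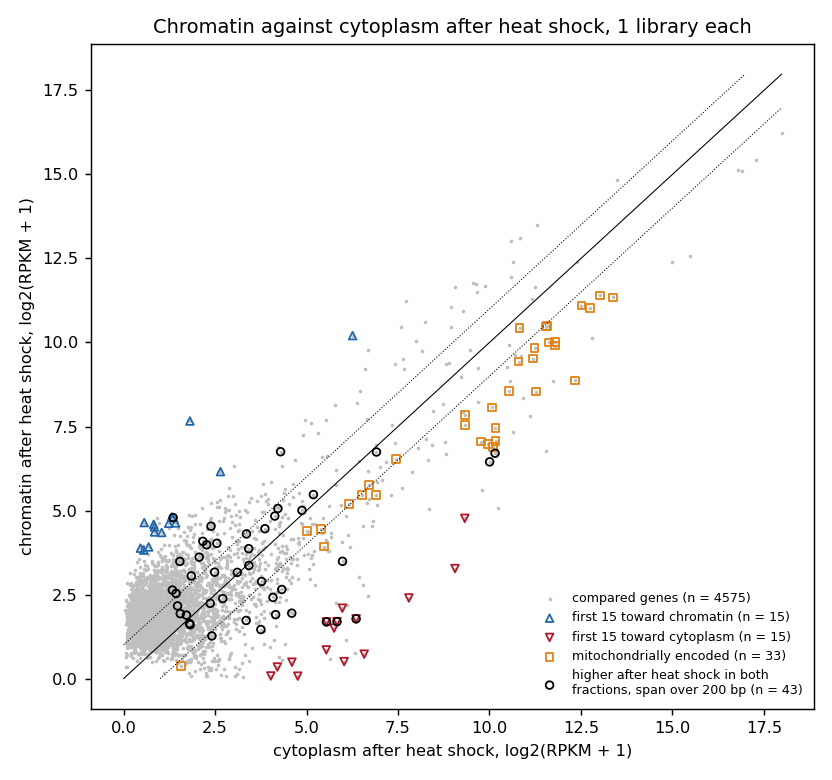
Each point is a gene, with its level in cytoplasm on the horizontal axis and in chromatin on the vertical axis after heat shock, both as log2(RPKM + 1), 1 library each; the solid line marks equal values and the dotted lines 2-fold differences. Most of the 4575 genes lie above the solid line at low values, while the 33 mitochondrial genes lie below it.

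Genes toward chromatin were ranked by their ratio on the RPKM + 1 scale. Only genes with a span over 200 bp, at least 20 reads over both libraries and at least 5 RPKM in 1 of them entered. The first 15 had RPKM ratios of 13.4-fold to 80.2-fold with a median of 23.2-fold. Their spans ran from 376 bp to 165711 bp with a median of 5269 bp, so they were not all long genes. The ranking rule shapes this mix of spans. Without the pseudocount, compared genes of over 1 to 5 kb with at least 20 reads had a median log2 ratio of 0.38. Those over 100 kb had 3.325. In unstressed cells 14 of the 15 were already at least 2-fold higher in chromatin on the RPKM + 1 scale, beside 32.4% of all compared genes with both values. Unstressed values entered the choice of these genes only through the filter on the mean over 4 libraries.

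ENSMUSG00000092274, with a span of 20771 bp, came first. It had 202 RPKM in chromatin and 2.51 RPKM in cytoplasm after heat shock, from 81804 and 581 reads (80.2-fold, with an exact 95% interval of 73.9 to 87.2 from the reads, which covers counting error only, as do the ranges after each ratio below). Without heat shock it had 49887 and 1818 reads, a ratio of 12.4-fold. The wider gap after heat shock thus came from both sides, with 1.54 times the RPKM in chromatin and 0.238 times in cytoplasm. ENSMUSG00000092341, with a span of 6983 bp, was the most abundant RNA of this group at 1179 RPKM in chromatin and 75.6 RPKM in cytoplasm. Its 160839 chromatin reads against 5873 gave 15.6-fold (15.2 to 16.0), beside 17.8-fold in unstressed cells. On the deposited scale its ratio was thus slightly lower after heat shock, apart from the unstressed interval of 17.4 to 18.3.

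The genes of 165711 bp and 141061 bp were the longest of the 15. The first had 63330 reads in chromatin and 1468 in cytoplasm, a ratio of 24.6-fold (23.3 to 25.9), and 11.5-fold without heat shock. The second had 37805 against 589 (36.6-fold, 33.7 to 39.7), and 30.0-fold without. Both held few cytoplasmic reads for their length, at 0.796 and 0.375 RPKM. A gene of 47088 bp had 21881 chromatin reads against 880 (14.2-fold, 13.2 to 15.2), beside 10.8-fold without heat shock.

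Shorter genes in the same group rested on fewer reads. The gene of 376 bp had 176 chromatin reads against 2, and its 50.1-fold ratio has an interval of 13.7 to 417. The ratio of a gene of 1354 bp, from 348 reads against 7, was 28.3-fold (13.6 to 71.0), and one of 2958 bp had 815 against 20 (23.2-fold, 14.9 to 38.2). Their order within the group is therefore not settled by the depth. The gene of 2958 bp was lower in both fractions after heat shock, at 0.311 times its unstressed RPKM in chromatin and 0.414 times in cytoplasm.

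A gene of 6181 bp was the exception in its history. It had 2 chromatin reads and 1 cytoplasmic read in unstressed cells, which sets no side. After heat shock it had 3219 and 107 reads, a ratio of 17.1-fold toward chromatin (14.1 to 21.0). On the RPKM + 1 scale it was the only one of the 15 that was 2-fold or more above its unstressed level in cytoplasm, and 3 of the 15 were so in chromatin. Among all compared genes these shares were 4.09% in cytoplasm and 10.4% in chromatin. A gene of 5269 bp had 1990 chromatin reads after heat shock and 440 before, and its ratio was 18.3-fold after and 5.84-fold before.

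**Figure D2:**
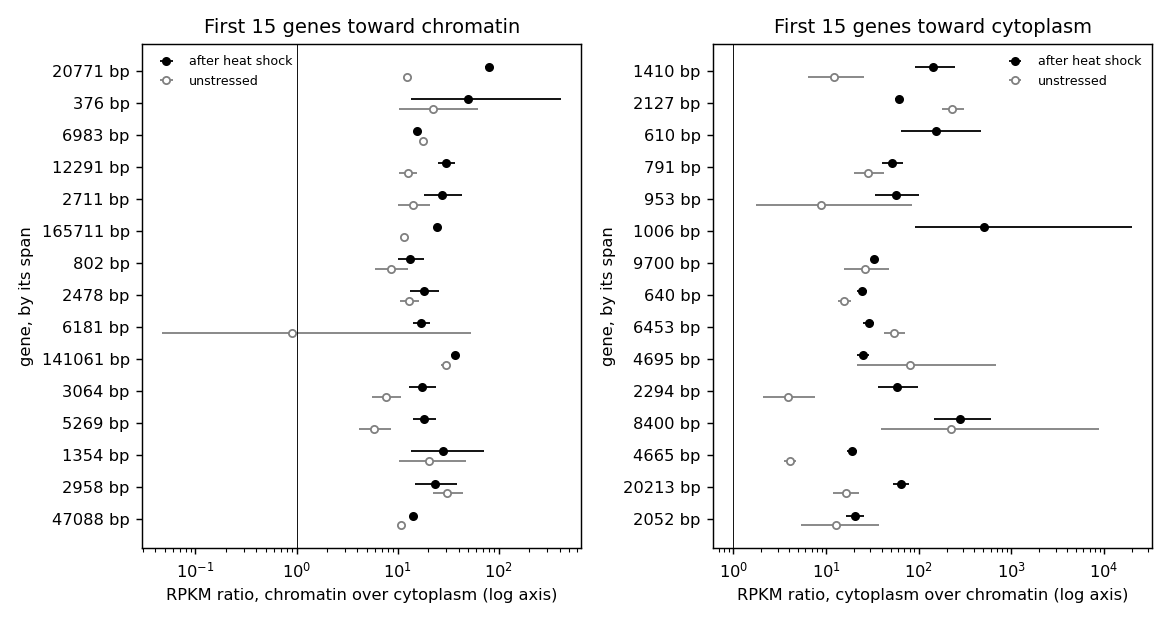
The RPKM ratio of the first 15 genes toward chromatin (left, chromatin over cytoplasm) and the first 15 toward cytoplasm (right, cytoplasm over chromatin) on log axes, after heat shock (filled) and unstressed (open), 1 library per point, with exact 95% intervals for counting error as bars; ratios with 0 reads on a side are not drawn. Of the genes toward chromatin, 14 lie above 1 in both conditions, and the gene of 6181 bp has an unstressed interval that spans 1.

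The first 15 genes toward cytoplasm were shorter and, on the deposited scale, differed by more. A common scaling moves the ratios of the 2 groups in opposite directions, so which group differed by more depends on the scale. Their spans ran from 610 bp to 20213 bp with a median of 2127 bp, and 11 of them were 5 kb or shorter. Cytoplasmic RPKM exceeded chromatin RPKM by up to 512-fold, with a median of 56.5-fold. The highest value belongs to a gene of 1006 bp with 292 cytoplasmic reads against 1, so that the interval of its ratio runs from 91.3 to 20310. In cytoplasm 13 of these 15 were 2-fold or more above their unstressed level, on the RPKM + 1 scale, and in chromatin 4 were, beside the 4.09% and 10.4% of all compared genes. The heat-shocked libraries chose these genes, so a high value after heat shock is part of how they were found. Of the 13 with reads in both unstressed libraries, all lay toward cytoplasm there too, and 11 by at least 2-fold, beside 11.7% of compared genes.

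ENSMUSG00000101445, with a span of 1410 bp, stood first toward cytoplasm, with 94.4 RPKM there and 0.653 RPKM in chromatin. These came from 1481 and 18 reads (144-fold, 91.0 to 244). In unstressed cells it had 61 cytoplasmic and 11 chromatin reads, so the cytoplasm was 18.1 times higher after heat shock and the chromatin 1.54 times. ENSMUSG00000108599, with a span of 2127 bp, was the next, at 532 RPKM in cytoplasm and 8.66 RPKM in chromatin. It had 12594 reads against 360 (61.4-fold, 55.3 to 68.4) and was 231-fold higher in cytoplasm without heat shock, so its ratio was less extreme after it.

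Some genes of this group differed between conditions mainly in cytoplasm. The gene of 2294 bp had 17 chromatin reads before and 18 after heat shock, while its cytoplasmic reads were 30 and 594. One of 8400 bp had 1 and 9 chromatin reads and 100 and 1428 cytoplasmic reads. A gene of 4665 bp had 275 and 298 chromatin reads beside 506 and 3223 in cytoplasm, and its cytoplasmic RPKM was 62.1 against 3.27 in chromatin after heat shock, and 4.07-fold higher before. In the first and the last of these, chromatin RPKM after heat shock was 0.995 times (0.484 to 2.06) and 1.02 times (0.862 to 1.20) the unstressed one. The few chromatin reads of the first do not exclude a 2-fold difference either way. In both genes the cytoplasm differed.

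Other genes were higher in both fractions. The gene of 9700 bp had 15 and 460 chromatin reads, and 178 and 8729 cytoplasmic reads, before and after heat shock. It lay 33.3-fold toward cytoplasm after heat shock (30.3 to 36.7) and 26.3-fold before. A gene of 4695 bp had 2 and 205 chromatin reads, and 73 and 2926 cytoplasmic reads, and was 25.1-fold higher in cytoplasm after heat shock (21.7 to 29.0). That of 2052 bp had 6 and 89, and 35 and 1043, with 20.6-fold (16.6 to 25.8). These 3 genes had little chromatin RNA for their cytoplasmic level 3 h into recovery.

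Genes with spans of up to 200 bp, where small structured RNAs fall, were ranked apart. Of 191 such genes with enough reads, 118 had ratios above 0 and the median log2 ratio was 0.78. At least 2-fold toward chromatin were 88, and 54 toward cytoplasm. Of all 4575 genes compared, 2096 (45.8%) and 317 (6.93%) were so, but these did not have to pass the filter on reads. The sets were therefore not matched. Among the 761 genes of any span with a mean of at least 5 RPKM, 266 lay at least 2-fold toward chromatin and 184 toward cytoplasm. Whether short genes differed from other genes of their level was not tested.

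Among the first 8 short genes toward chromatin, the ratios ran from 8.61-fold to 31.9-fold, but 6 had fewer than 20 cytoplasmic reads. Deeper ones were a gene of 71 bp with 3347 chromatin reads against 165 (11.6-fold, 9.88 to 13.6) and one of 132 bp with 2251 against 149 (8.61-fold, 7.29 to 10.2). The latter had 9.35-fold without heat shock, and the former 3.93-fold. Toward cytoplasm the first 8 ran from 18.6-fold to 116-fold, and 5 had fewer than 20 chromatin reads. Here a second gene of 132 bp had 1764 cytoplasmic reads against 85 (36.4-fold, 29.3 to 45.8), and one of 77 bp had 2574 against 164 (27.5-fold, 23.5 to 32.5). A gene of 129 bp moved between conditions, with 132 and 1275 cytoplasmic reads beside 112 and 120 in chromatin, before and after heat shock. Short genes thus supplied well-measured members of both ends.

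Mitochondrially encoded RNAs lay toward cytoplasm after heat shock on the deposited scale. They are made and kept inside mitochondria, so they mark what a fraction holds from outside the nucleus. All 32 mitochondrial genes with at least 20 reads over both heat shock libraries had the higher RPKM in cytoplasm. So did all 32 without the 10 highest genes in the scale and with the median gene set to 0, but 23 of them did when both libraries had the same RPKM sum, where the median of the messenger RNAs turned to 0.26, toward chromatin. Copies of mitochondrial DNA in nuclear chromosomes share sequence with these genes, so single values are uncertain where reads could be split.

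The ribosomal RNA mt-Rnr2, a structural part of the mitochondrial ribosome, had 3540 RPKM in cytoplasm and 1030 RPKM in chromatin after heat shock, from 62333 and 31830 reads (3.44-fold, 3.39 to 3.48). It was 12.0-fold higher in cytoplasm without heat shock. The other, mt-Rnr1, had 37502 and 17920 reads (3.67-fold, 3.61 to 3.74), beside 12.8-fold without. Both mitochondrial ribosomal RNAs thus stood much closer between the fractions in the heat-shocked cells.

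The messenger RNAs of the respiratory chain showed a smaller gap. For the 9 compared, the median log2 ratio was -0.97 with a range of -1.55 to -0.63. Without heat shock it was -2.98 for the 8 with reads in both libraries, which leaves out ATP6. COX1, a core subunit of cytochrome oxidase, had 104 RPKM in cytoplasm and 53.3 RPKM in chromatin (1.95-fold, 1.83 to 2.09), beside 6.07-fold without heat shock. ND1, a subunit of complex I, had 174 and 91.5 RPKM (1.90-fold, 1.78 to 2.04), beside 18.4-fold. CYTB, the cytochrome b of complex III, had 119 and 43.3 RPKM (2.75-fold, 2.53 to 2.98), beside 11.3-fold. ND5 had the smallest gap of the 9, at 1.58-fold (1.41 to 1.76), and ATP6, with 15 cytoplasmic reads against 4, the largest and least precise at 6.58-fold (2.10 to 27.2).

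Mitochondrial transfer RNAs, which decode those messengers, varied most. The 22 had a median log2 ratio of -1.75, and cytoplasm exceeded chromatin by 1.31-fold for TrnL1 to 11.1-fold for TrnR. TrnR had 3933 cytoplasmic reads against 620 in chromatin, and TrnL1 1509 against 2023 in a deeper library. Without heat shock the same genes ran from 13.3-fold to 376-fold. The last of these, TrnY, rests on 1 chromatin read against 170.

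**Figure D3:**
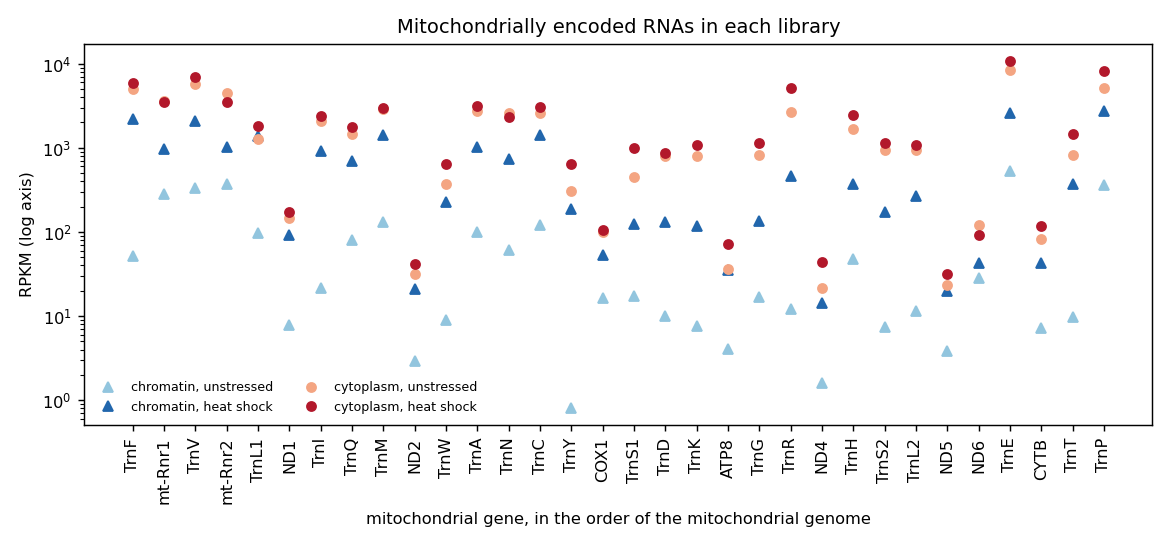
RPKM on a log axis of the 32 mitochondrially encoded RNAs with at least 20 reads over both heat shock libraries, in the order of the mitochondrial genome, in each of the 4 libraries (triangles chromatin, circles cytoplasm, light unstressed, dark heat shock; 1 library per point). The dark triangles lie above the light ones and below the dark circles for all 32.

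The narrower gap lay mainly on the chromatin side. In all 32 genes chromatin RPKM was higher after heat shock than before. Cytoplasmic RPKM was higher too in 28 of the 32, but the ratio was further toward chromatin in all 32. Mitochondrial genes held 0.107% of chromatin reads before and 0.423% after heat shock, and 1.46% and 1.42% of cytoplasmic reads. Messenger RNAs had 68.8 and 327 reads per 1000000 in chromatin, transfer RNAs 140 and 1357, and ribosomal RNAs 862 and 2547. In cytoplasm the same values were 563 and 687, 3452 and 4507, and 10556 and 8969. Mitochondrial RNA was therefore a larger share of the heat-shocked chromatin library than of the unstressed one. What it implies for the ratios of other genes was not tested.

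Where RNAs that were higher after heat shock lay between the fractions was examined last. Since chaperone genes could not be looked up by name, genes were taken from the values, as those that exceeded their unstressed level 2-fold or more in both fractions on the RPKM + 1 scale, with at least 20 reads over both heat shock libraries. There were 60 such genes, 1.31% of those compared. The read minimum was set after these genes had been seen, and 68 passed without it. The choice uses both libraries of the ratio, so the values below are a description. Of the 60, 43 were nuclear genes over 200 bp, 15 were shorter and 2 were mitochondrial transfer RNAs.

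The 43 longer genes had a lower median ratio than the compared genes as a whole. Their median log2 ratio was 0.13, against 0.94 for all 4217 compared genes of that kind. The 2 sets were not matched for level, since a doubling of RPKM + 1 needs at least 1 RPKM in each fraction. Among the 761 genes of any span with a mean of at least 5 RPKM, the median was 0.15. The lower median of the 43 can therefore not be told apart from their level. Toward chromatin 11 were at least 2-fold higher, toward cytoplasm 13, and 19 lay between. Of all 4217 compared genes of that kind, 1961 were so toward chromatin and 221 toward cytoplasm. Of the 761 genes with a mean of at least 5 RPKM, 266 and 184 were. Only 12 of the 43 lay above the median of all compared genes. Without the pseudocount the 2 medians were 0.13 and 1.71, over genes with at least 20 reads. Where 0 falls depends on the scale: for all 60 genes the median was -0.10 as deposited, 1.08 with the same RPKM sum, -1.01 with the median gene set to 0 and -0.83 without the 10 highest genes. The choice of genes does too, with 35 on the same RPKM sum and 95 without the 10 highest genes.

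Genes up to 5 kb lay nearer to cytoplasm in general, so the medians were also set side by side within classes of span. These classes were not matched for RPKM level either. For spans of over 1 to 5 kb the 26 genes had a median of 0.09 beside 0.26 for 772 genes of the class, and 11 lay above the class median. For over 5 to 20 kb the 10 genes had 0.26 beside 0.74, and 4 lay above. Without the pseudocount these 2 classes had 0.10 beside 0.38 and 0.28 beside 1.26. The 4 genes of over 20 to 100 kb had 1.67 beside 1.19, and 3 lay above, although without the pseudocount the order turned to 1.94 beside 2.32. The 3 genes of over 200 bp to 1 kb had -1.62 beside -0.50. The 15 short genes had a median of -1.19 beside 0.66 for 325 genes of up to 200 bp.

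At the chromatin end, next to the gene of 6181 bp, stood a gene of 22090 bp. It had 107 RPKM in chromatin and 18.6 RPKM in cytoplasm after heat shock, from 46019 and 4565 reads (5.74-fold, 5.57 to 5.92). In unstressed cells it had 723 and 396 reads and lay near even, at 0.824-fold (0.728 to 0.934). Its RPKM was 59.8 times the unstressed one in chromatin and 8.59 times in cytoplasm. After 3 h of recovery this gene had the most chromatin reads of the 43.

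Further genes of this end were both short and long. Those of 1805 bp, 3725 bp and 3075 bp lay 3.53-fold (2.70 to 4.67), 3.43-fold (2.62 to 4.55) and 3.15-fold (2.67 to 3.74) toward chromatin. Others had spans over 10 kb. A gene of 28407 bp had 12290 chromatin reads against 1339 (5.23-fold, 4.94 to 5.54) and 5.84-fold without heat shock. One of 14974 bp had 2982 against 317 (5.36-fold, 4.77 to 6.04), beside 5.55-fold. For these the ratio was nearly the same in both conditions on the deposited scale, with overlapping intervals. One of 13339 bp instead had 4158 against 518 (4.57-fold, 4.17 to 5.02) after and 125 against 83 (0.680-fold, 0.511 to 0.909) before heat shock.

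Between the ends stood genes with few reads before heat shock. The gene of 2803 bp had 1 chromatin read and 0 cytoplasmic reads before, and 509 and 304 after (0.954-fold, 0.826 to 1.10). That of 1645 bp had 8 and 9 before, and 1397 and 649 after (1.23-fold, 1.12 to 1.35). That of 3728 bp had 53 and 56 before, and 2264 and 1176 after (1.10-fold, 1.02 to 1.18). A gene of 1791 bp had 41 and 9 before, and 735 and 270 after (1.55-fold, 1.35 to 1.79). The first 3 of these lay within 1.23-fold of even on the deposited scale.

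At the cytoplasmic end stood the genes of 9700 bp, 4695 bp and 2052 bp described above, and more abundant ones. A gene of 3031 bp had 1137 RPKM in cytoplasm and 103 RPKM in chromatin, from 38346 and 6117 reads (11.0-fold, 10.7 to 11.3), beside 12.5-fold without heat shock. One of 978 bp had 1030 and 86.3 RPKM, from 11171 and 1649 reads (11.9-fold, 11.3 to 12.5), beside 56.7-fold. Another of 6688 bp had 4634 and 1336 reads (6.09-fold, 5.73 to 6.47), beside 4.37-fold. The most abundant RNAs of this end were thus not those with the highest ratios.

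The ratio itself was compared with that of unstressed cells for the 38 of the 43 genes that had reads in all 4 libraries. It was further toward chromatin after heat shock in 21, with the 2 counting intervals apart in 13. It was further toward cytoplasm in 17, with intervals apart in 6. The median difference of the log2 RPKM ratio was 0.18, beside 0.68 for all 4172 such genes, of which 3344 were further toward chromatin. Both conditions enter the choice of these genes, and the difference was not tested.

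**Figure D4:**
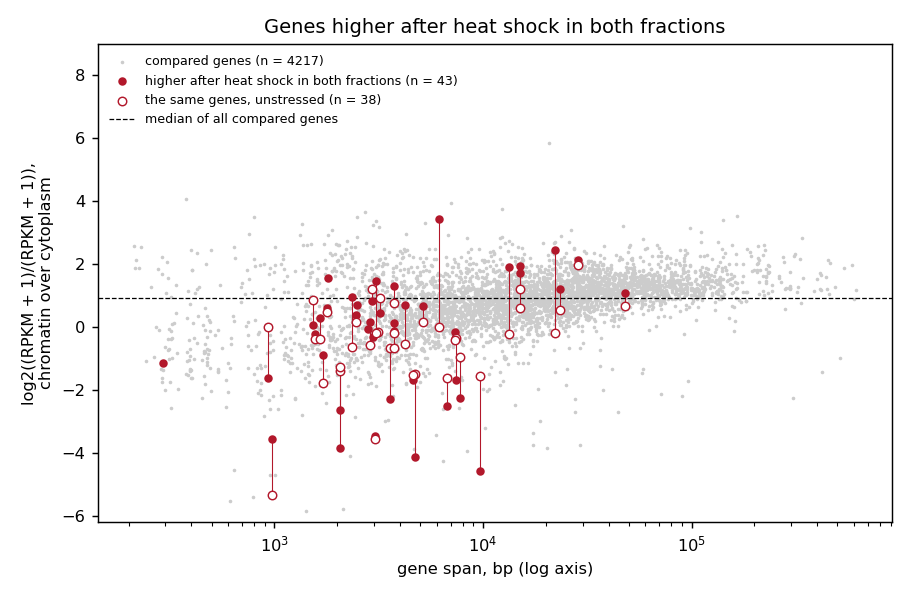
The log2((RPKM + 1)/(RPKM + 1)) of chromatin over cytoplasm against gene span on a log axis for nuclear genes over 200 bp; grey points are the 4217 compared genes after heat shock, filled red points the 43 that were higher after heat shock in both fractions, and open points the same genes unstressed where both libraries had reads (38), joined by lines. The filled points spread on both sides of 0, most of them below the dashed median of 0.92, and those above 10 kb lie above 0.

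Genes whose ratio differed most between the conditions were named in both directions. They were taken from nuclear genes over 200 bp with reads in all 4 libraries, at least 5 RPKM in 1 heat shock library and at least 20 reads in each condition over both fractions. Toward chromatin, a gene of 1941 bp had 1442 chromatin and 249 cytoplasmic reads after heat shock (3.30-fold, 2.88 to 3.79) and 45 and 138 before (0.147-fold). One of 853 bp had 902 and 123 after (4.18-fold, 3.46 to 5.09), and 180 and 181 before (0.449-fold). The former was higher in chromatin, at 30.1 times its unstressed RPKM, while cytoplasm differed by 1.34 times. The genes of 452 bp, 476 bp and 489 bp had at most 50 reads in either heat shock library. Toward cytoplasm, beside 3 genes of the first 15, a gene of 29105 bp had 6154 cytoplasmic and 272 chromatin reads after heat shock (39.7-fold, 35.2 to 45.0), and 390 and 125 before (6.91-fold). One of 18794 bp had 3401 and 440 after (13.6-fold, 12.3 to 15.0), and 133 and 212 before (1.39-fold). These 2 long genes lay at the cytoplasmic end although genes over 10 kb were otherwise mostly toward chromatin.

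A few loci held much of each library and so set its scale. The 10 loci with the most reads summed over both heat shock libraries had 32.6% of chromatin and 79.3% of cytoplasmic reads after heat shock. The locus of 1831 bp had 14.0% and 47.4%, and that of 95725 bp 4.44% and 14.5%. Their direction was not shared by all: the locus of 3329 bp had 9.70% of chromatin and 3.79% of cytoplasmic reads (2.56-fold, 2.55 to 2.57). Of the 10, this one and the gene of 6983 bp lay toward chromatin.

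Some genes were listed in 1 heat shock library only. Chromatin alone listed 6287 genes with a median of 2 reads, and 269 of these had at least 20. Cytoplasm alone listed 1325 with a median of 1 read, and 11 had at least 20. With 3 reads as the limit that a count of 0 allows in the other library, and the observed reads taken as they are, a gene of 99808 bp with 112 chromatin reads was at least 21.3-fold higher in chromatin. A gene of 4293 bp with 67 cytoplasmic reads was at least 39.2-fold higher in cytoplasm, and one of 93030 bp with 55 was at least 32.2-fold higher. These limits leave out the counting error of the observed reads.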

How the data were processed

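The authors deposited 1 RPKM value per Ensembl gene identifier and library; per the submitters' processing notes they used cutadapt and STAR (no versions) and the build GRCm38. The sources used here do not name the counter, annotation release or strand handling, so overlapping genes and near-identical copies are uncertain. RPKM values were whole multiples of 1 read, so each library total was taken from the common divisors of inverse RPKM values (20000 pairs, tolerance 0.002, share 0.5), and reads and span as the smallest whole numbers; no gene had a relative error above 1e-12. Recovered reads summed to 98.4% to 99.7% of the totals. Where reads and span share a factor both come out too small, and intervals too wide. The recovery was tested on simulated data.

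Ratios used a pseudocount of 1 RPKM and genes with a mean of at least 1 RPKM over 4 libraries that were listed in both heat shock libraries. Single-gene ratios are RPKM ratios with exact 95% Clopper-Pearson intervals from reads. Since PCR copies could not be told from separate molecules, intervals and limits cover counting error only. With 1 library a group no test was made.

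Named genes are the first 15 toward each fraction (span over 200 bp, at least 20 reads, 5 RPKM in 1 library), the first 8 of each side up to 200 bp, mitochondrial genes, genes higher after heat shock in both fractions, and the first 5 each way by difference from the unstressed ratio. The members and lists were chosen with earlier results of these data known. The planned lists of stress genes, nuclear long noncoding RNAs, ribosomal protein genes and cell type markers could not be matched to identifiers and gave no result; genes higher after heat shock in both fractions took the place of the stress list after the values were seen. Other loci were picked by their reads summed over both heat shock libraries. The m6A immunoprecipitation libraries and their inputs were not used here. Scripts ran under Python 3.11.15 with scipy 1.17.1, pandas 2.3.3 and numpy 2.4.6.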

Additional observations from a re-analysis of the deposited data

Results flagged for a closer look

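In 7 of the named genes over 200 bp, chromatin had the higher RPKM after heat shock and cytoplasm the higher RPKM without it, on the deposited scale and with both 95% counting intervals clear of even. Each condition has 1 library a fraction, so the difference was not tested. The sides depend on the scale: 5 of the 7 kept them without the 10 highest genes in it (not those of 3728 bp and 4238 bp), 4 with the median gene set to 0 and 1 with the same RPKM sum, that of 1941 bp. These scales were chosen for this after seeing the data. Of all 4172 nuclear genes over 200 bp with both ratios, 3344 were further toward chromatin after heat shock, and the median log2 difference over the 4172 was 0.68. The quotient of both ratios was 22.4 for the gene of 1941 bp, 9.31 for that of 853 bp, 6.97 for that of 22090 bp and 6.73 for that of 13339 bp. It was 4.62 for a gene of 2360 bp, which had 865 chromatin and 243 cytoplasmic reads after heat shock, and 34 and 35 before. For the gene of 4238 bp it was 2.72 (2281 and 780 reads after, 193 and 142 before), and for that of 3728 bp 2.57. Of these, 5 were among the genes higher after heat shock in both fractions, and those of 1941 bp and 853 bp were not. The genes of 1941 bp and 853 bp were named for their large difference between the ratios. Their switch of side and their high quotients are therefore part of how they were found. How many of all compared genes switched sides in this way was not counted.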

How the results depend on the processing

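No paired analysis was possible because each group has 1 library. The pseudocounts of 0.1 and 0.01 RPKM gave medians over all genes of 1.53 and 1.64. With a mean of at least 0.1 RPKM or no filter the median was 0.48 or 0.17. With at least 5 RPKM it was 0.15, with 266 genes 2-fold toward chromatin and 184 toward cytoplasm. With at least 20 reads and no pseudocount it was 2.12, with 10979 and 920 of 14681 genes. Scaling both libraries to the same RPKM sum gave a median of 1.67, with 3531 and 103 genes, setting the median to 0 gave 392 and 781, and leaving the 10 highest genes out of the scale gave a median of 0.59 with 630 toward cytoplasm. Leaving mitochondrial and short genes out as well gave 0.56 and 649. On these 4 scales the median of genes higher after heat shock in both fractions was 1.08, -1.01, -0.83 and -0.87, and that of mitochondrial messenger RNAs 0.26, -1.89, -1.77 and -1.82. The side of these medians thus depends on the scale. Counting the genes higher in both fractions under alternatives chosen after seeing the data gave 35 on the same RPKM sum and 95 without the 10 highest genes, against 60. Of 64 named ratios past 2-fold, 0 of 448 values under the 7 alternatives that can move a ratio changed sign. Most of these ratios were chosen as extremes, so a change of sign was unlikely from the start. The count therefore says little about moderate differences. Some genes were also counted more than once, since the 66 named ratios cover 57 genes. The planned medians of stress, nuclear noncoding and ribosomal protein genes were not run. Depth limits genes with under 20 reads on a side.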
